A study of Homo sapiens with 16 samples.

Results

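The 38 genes described here encode the glycolytic pathway and the hypoxia response, and were picked by gene symbol from a list of known pathway members. That list was chosen with earlier results of these data known. They are 38 of the 62069 gene identifiers in the count table, and all 38 were found. 26 belong to glycolysis (glucose and lactate transporters, the enzymes between hexokinase and lactate dehydrogenase, the PFKFB regulators and the pyruvate dehydrogenase kinases) and 12 to the hypoxia response (the HIF alpha subunits, their prolyl hydroxylases and target genes). 35 had enough reads to be tested. PDK4 had 0 to 6 counts per library, EGLN3 0 to 6 and CA9 0 to 8, and these 3 were not tested.

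RNA was sequenced from IMR90 ER:RAS cells, human fetal lung fibroblasts of the established line IMR90 that carry RAS fused to an oestrogen receptor domain, so that 4-hydroxytamoxifen (4OHT) switches the oncogene on. Every group held 4 libraries from passage 15 cells at day 6. The groups shAHCY_2 and shAHCY_4 received 4OHT at 100 nM and each carried a different short hairpin against AHCY, whose enzyme breaks S-adenosylhomocysteine down to adenosine and homocysteine. The group EV_4OHT received the same dose and is labelled senescent, whereas the group EV is labelled non-senescent. EV and EV_4OHT are the vector groups, with no AHCY hairpin named in their labels. No 4OHT dose is given for EV, and whether these cells received a vehicle is not stated. The design asks how RAS-induced senescence changes the transcriptome and how loss of AHCY alters that state. All 4 groups share the ER:RAS construct, so an effect of 4OHT on the cells apart from RAS cannot be told apart from that of RAS, and hairpin cells without 4OHT were not analysed here.

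Glycolysis splits glucose into pyruvate, with hexokinase, phosphofructokinase and pyruvate kinase as its regulated steps, and lactate dehydrogenase returns the NAD that it needs. When oxygen is low, the prolyl hydroxylases (EGLN) stop marking HIF1A and EPAS1 for destruction, and the stabilised HIF proteins bind a short DNA element in target genes, many of them glycolytic. HIF1A and EPAS1 are set mainly at the protein level, which RNA counts do not read. Senescent fibroblasts are known to remain metabolically active.

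Libraries held 8236199 to 18235787 counts. AHCY averaged 18.5 ± 4.54 CPM (counts scaled to a common library size with TMM factors) in shAHCY_2 cells and 14.7 ± 2.19 CPM in shAHCY_4 cells, against 164 ± 8.08 CPM in EV_4OHT cells (SD, n = 4 each), so the hairpin labels hold. All 13 fibroblast markers examined were at 1 CPM or more on average in every group, with summed levels of 8610 to 9890 CPM in shAHCY_2, 9250 to 10400 in shAHCY_4, 8650 to 9180 in EV_4OHT and 15300 to 18400 in EV cells. The immune list had 0 of 7 markers at that level in any group. Of 5 endothelial markers, 1 was at that level in each group, while PECAM1 and CDH5 stood at 0 counts. The 5 summed to 2.59 to 4.72 CPM in shAHCY_2 and 3.03 to 5.1 in shAHCY_4. They summed to 2.28 to 3.23 CPM in EV_4OHT and 0.819 to 2.12 in EV cells. The 6 epithelial markers summed to 1.97 to 2.6 CPM in shAHCY_2 and 2.23 to 3.92 in shAHCY_4. Their sums were 2.34 to 4.01 CPM in EV_4OHT and 48.8 to 58.1 in EV cells. The part of these shifts in the results below was not tested, and in bulk RNA fewer cells of a type and less RNA per cell cannot be told apart. Library 59 of shAHCY_2 and, less so, library 51 of EV stood apart from their groups. Their deviation from the mean of all 16 libraries ran against the GC content of the gene across all tested genes. The Spearman rho was -0.54 in library 59 and -0.27 in library 51. Across the 35 tested members, the deviation from the other libraries of the same group had a rho of -0.67 in library 59 and -0.63 in library 51. By that second measure, libraries 61 (-0.60) and 56 (-0.51) also ran against GC content. Libraries 57, 58 and 60, each set against a mean that holds library 59, ran with it (0.68, 0.64 and 0.63).

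The promoters of 4 members are shown because the results turn on them or, for BNIP3, because the gene is a known target with many copies of the HIF-binding core. HK2 rose and CA12 fell the most of all tested members in EV_4OHT against EV cells. EPAS1 was the only member that edgeR called between the hairpins, and BNIP3 is a classical HIF target. Each run covers 250 bases before to 50 bases after the start given by RefSeq on GRCh38.p14, 5′ to 3′ on the gene's strand. Capitals mark the core searched, ACGTG or GCGTG on either strand (the palindrome CACGTG holds a match on each). HK2 lies at chr2:74834920-74835219 on the plus strand with 6 matches, BNIP3 at chr10:131981874-131982173 on the minus strand with 6, CA12 at chr15:63381797-63382096 on the minus strand with 2 and EPAS1 at chr2:46297157-46297456 on the plus strand with 1. For a gene with several starts, the one with the most matches is shown. LDHA also has an entry with 6 matches, which is not shown.
HK2: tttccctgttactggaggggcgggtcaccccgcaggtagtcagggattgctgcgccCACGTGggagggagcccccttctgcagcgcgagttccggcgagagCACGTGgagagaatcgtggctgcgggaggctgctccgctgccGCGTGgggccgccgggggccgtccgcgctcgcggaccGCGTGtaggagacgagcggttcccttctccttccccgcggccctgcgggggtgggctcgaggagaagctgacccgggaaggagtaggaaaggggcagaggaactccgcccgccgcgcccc
BNIP3: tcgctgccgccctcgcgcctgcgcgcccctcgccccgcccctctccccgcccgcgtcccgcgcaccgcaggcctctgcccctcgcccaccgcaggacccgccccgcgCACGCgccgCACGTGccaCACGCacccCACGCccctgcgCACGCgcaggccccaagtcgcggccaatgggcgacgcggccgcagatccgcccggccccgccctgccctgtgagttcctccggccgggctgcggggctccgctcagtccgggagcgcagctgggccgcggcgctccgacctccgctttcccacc
CA12: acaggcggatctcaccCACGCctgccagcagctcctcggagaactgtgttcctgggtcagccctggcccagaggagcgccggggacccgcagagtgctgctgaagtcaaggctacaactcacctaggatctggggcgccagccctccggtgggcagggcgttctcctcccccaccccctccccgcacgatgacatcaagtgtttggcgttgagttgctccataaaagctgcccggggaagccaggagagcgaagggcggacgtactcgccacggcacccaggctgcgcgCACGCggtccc
EPAS1: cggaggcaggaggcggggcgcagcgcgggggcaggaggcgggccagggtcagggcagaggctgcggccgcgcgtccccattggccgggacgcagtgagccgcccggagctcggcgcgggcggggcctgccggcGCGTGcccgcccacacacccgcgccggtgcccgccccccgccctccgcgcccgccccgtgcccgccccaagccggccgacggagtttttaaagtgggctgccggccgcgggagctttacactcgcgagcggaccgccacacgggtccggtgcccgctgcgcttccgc

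The core was present in 40 of the 61 promoter entries of the members (65.6%), against 48.4% of all 35116 entries of the same length. Member entries also held more CpG dinucleotides, with a median of 27 against 14 over all entries, and both core sequences contain a CpG. Of the 34 members with an entry, 30 had the core in at least 1 of their promoters, and PGAM1, PDK4, EGLN3 and P4HA2 had it in none. A gene can have several entries, and no share per gene over all genes was taken. The counts per gene here and below therefore cannot be set against the 48.4% of entries. SLC2A3, SLC16A1, BNIP3L and NDRG1 have no entry in the table used. The core was found in members of either direction: 18 of the 20 members with an entry that rose in EV_4OHT cells and 5 of the 5 that fell had it, as did 6 of the 6 that were tested and not called. A match is a string of letters and was not tested as a binding site.

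In EV_4OHT cells most of the glycolytic trunk was higher than in EV cells, while the glucose transporter SLC2A1, the phosphofructokinases PFKL and PFKP and the kinase PDK1 were lower. 23 of the 35 tested members rose and 5 fell (edgeR quasi-likelihood test, adjusted p under 0.05), which is 65.7% and 14.3% of them, while 26.7% of all 13526 tested genes rose and 26.8% fell. The median log2 fold change was 0.36 over the members and -0.02 over all tested genes. HK2, SLC2A3 and PDK3 rose by more than 2-fold (7.21% of all tested genes did) and CA12 fell by more than 2-fold (10.6% did), and the other changes were smaller. Among glycolysis members 18 rose and 4 fell of 25, and among hypoxia members 5 rose and 1 fell of 10. The map of log2 levels by library shows these shifts in all 4 EV_4OHT libraries.

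**Figure D1:**
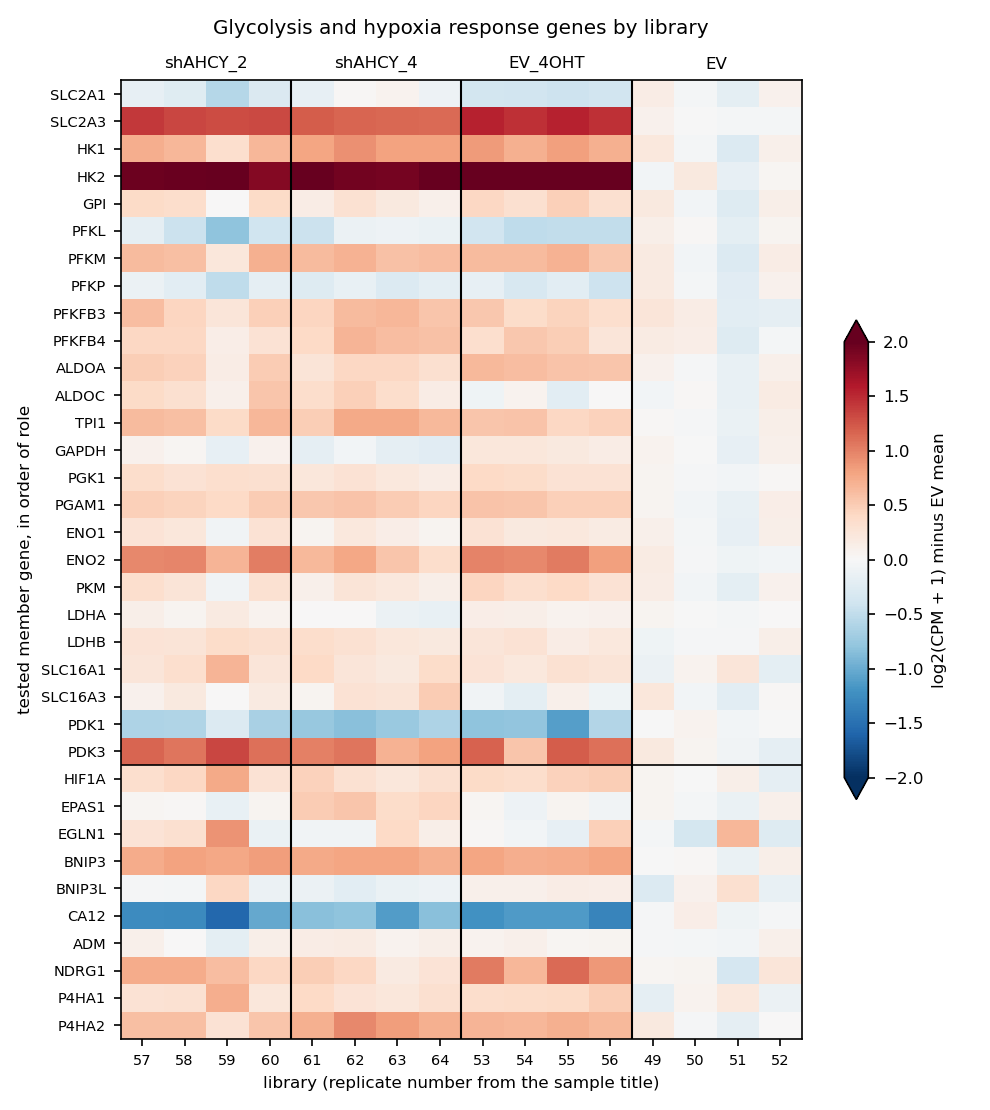
Each row is 1 of the 35 tested members and each column 1 library, grouped as shAHCY_2, shAHCY_4, EV_4OHT and EV. Colour is log2(CPM + 1) minus the EV mean, limited to the range -2 to 2, and the horizontal line parts glycolysis (above) from hypoxia response genes (below). HK2, SLC2A3 and PDK3 are red and CA12 and PDK1 blue in the 12 libraries with 4OHT, and library 59 differs from its group in genes such as GPI, PFKL and EGLN1.

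At the entry of glucose, the facilitative transporters moved in opposite directions. SLC2A3 (GLUT3), a high-affinity transporter, had 219.6, 207, 219 and 208 CPM in EV_4OHT libraries, against 79.0, 74.5, 72.9 and 72.5 CPM in EV libraries. SLC2A1 (GLUT1), the transporter most tissues use for basal uptake, had 194, 194, 188 and 192 CPM in EV_4OHT libraries, against 279.7, 246, 219 and 268 CPM in EV libraries. Neither gene had overlapping groups: the lowest EV_4OHT library of SLC2A3 lay far above the highest EV library, and all EV_4OHT libraries of SLC2A1 lay below all EV libraries. The log2 fold change was 1.51 ± 0.06 for SLC2A3 (SE, adjusted p = 6.97e-15) and -0.40 ± 0.09 for SLC2A1 (adjusted p = 0.000618). Per kilobase of the longest annotated transcript, SLC2A3 made up 48.0% ± 1.01 of the summed level of the pair in EV_4OHT cells and 19.8% ± 1.44 in EV cells (SD, n = 4), and 43.0% and 16.8% when the median transcript length was used.

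Hexokinase traps glucose in the cell as glucose 6-phosphate. HK2, the inducible form, had 122, 126, 146 and 138 CPM in EV_4OHT libraries, against 28.1, 33.4, 25.8 and 29.9 CPM in EV libraries. HK1, the form most cells express at all times, had 437, 396, 426 and 396 CPM in EV_4OHT libraries, against 280.4, 234, 200.4 and 258 CPM in EV libraries. The groups were apart for both genes, and every EV_4OHT library of HK2 held several times the level of every EV library. The log2 fold change was 2.19 ± 0.10 for HK2 (adjusted p = 3.06e-14) and 0.77 ± 0.09 for HK1 (adjusted p = 3.66e-07). HK1 was the larger of the pair per kilobase of transcript, since HK2 made up 18.2% ± 1.47 of their summed level in EV_4OHT cells and 7.77% ± 1.07 in EV cells (longest transcript), or 4.26% and 1.65% with median transcript lengths.

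At phosphofructokinase, PFKM rose while its paralogues fell. GPI, which turns glucose 6-phosphate into fructose 6-phosphate, averaged 376 ± 20.9 CPM in EV_4OHT cells and 290.0 ± 39.7 CPM in EV cells and rose. PFKM, the muscle-type phosphofructokinase, averaged 158 ± 7.10 CPM in EV_4OHT cells and 103 ± 14.9 CPM in EV cells, a log2 fold change of 0.62 ± 0.10 (adjusted p = 1.78e-05). The liver-type PFKL fell, at 97.1 ± 4.00 CPM in EV_4OHT cells and 135 ± 11.9 CPM in EV cells (log2 fold change -0.48 ± 0.10, adjusted p = 0.000584). The platelet-type PFKP also fell, at 259 ± 19.8 CPM in EV_4OHT cells and 314 ± 37.8 CPM in EV cells (log2 fold change -0.28 ± 0.09, adjusted p = 0.0121), but its highest EV_4OHT library lay above its lowest EV library and the call ended without library 56 (adjusted p = 0.0527). Per kilobase of the longest transcript, PFKM made up 28.8% ± 0.98 of the 3 genes in EV_4OHT cells and 17.4% ± 0.57 in EV cells, and PFKP was the largest at 60.7% ± 1.10 in EV_4OHT cells and 68.9% ± 0.35 in EV cells. PFKFB3 and PFKFB4, whose products set the level of the phosphofructokinase activator fructose 2,6-bisphosphate, rose by similar amounts (log2 fold change 0.42 ± 0.11 and 0.43 ± 0.12).

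From aldolase to pyruvate kinase, ALDOA, TPI1, GAPDH, PGK1, PGAM1, ENO1 and PKM rose with modest size. ALDOA, the main aldolase, had 3376, 3297, 3183 and 3150.45 CPM in EV_4OHT libraries, against 2267, 2102, 1929 and 2289 CPM in EV libraries. The groups were apart, and the log2 fold change was 0.60 ± 0.07 (adjusted p = 4.84e-07). TPI1, which interconverts the triose phosphates, rose by 0.50 ± 0.07 on the log2 scale, and PGAM1, the phosphoglycerate mutase, by 0.51 ± 0.07. PGK1, the first ATP-yielding enzyme, and PKM, the pyruvate kinase, rose by 0.34 ± 0.06 and 0.36 ± 0.08. GAPDH, often taken as a constant housekeeping gene, rose by 0.19 ± 0.07 (adjusted p = 0.0154) and ENO1, the main enolase, by 0.21 ± 0.08 (adjusted p = 0.0248). The GAPDH call ended when EV library 51 was left out (adjusted p = 0.0738), and the ENO1 call without library 50, 51, 53 or 55 (adjusted p between 0.0545 and 0.104).

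ENO2, an enolase best known from neurons, rose more than ENO1. It had 90.9, 88.2, 93.9 and 80.8 CPM in EV_4OHT libraries, against 50.4, 44.5, 42.5 and 43.3 CPM in EV libraries, with no overlap. The log2 fold change was 0.97 ± 0.10 (adjusted p = 1.92e-08), yet per kilobase of the longest transcript ENO2 was only 2.93% of the enolase sum in EV_4OHT cells and 1.76% in EV cells. ALDOC, the brain-type aldolase, was not called, with 16.7 ± 1.49 CPM in EV_4OHT cells and 17.4 ± 1.74 CPM in EV cells, and the 95% interval of its log2 fold change ran from -0.29 to 0.16.

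The summed level of the 17 enzyme genes from hexokinase to lactate dehydrogenase was 28197, 27510.3, 27103 and 26389.5 CPM in EV_4OHT libraries, against 23325, 21567, 19833 and 23491 CPM in EV libraries. No EV_4OHT library was as low as the highest EV library. These genes made up 2.63% ± 0.07 of all counts in EV_4OHT cells and 2.30% ± 0.18 in EV cells (SD, n = 4). Per kilobase of the longest transcript, GAPDH was the most abundant member in EV cells at 3752 CPM per kb, followed by PKM at 1384, ENO1 at 897, ALDOA at 847, TPI1 at 782, LDHA at 731 and LDHB at 595. The 12 hypoxia response genes together summed to 2234 to 2349 CPM in EV_4OHT libraries and 1820 to 1941 CPM in EV libraries, again with no overlap.

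**Figure D2:**
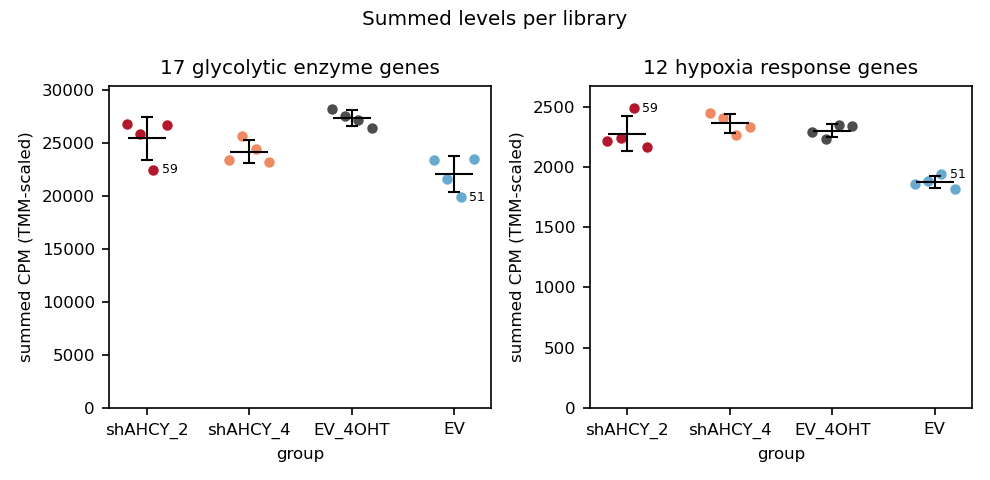
Summed TMM-scaled CPM per library of 17 glycolytic enzyme genes (left) and of the 12 hypoxia response genes (right) in shAHCY_2, shAHCY_4, EV_4OHT and EV cells. Points are libraries, bars the mean ± SD, n = 4, and libraries 59 and 51 are marked. The glycolytic sum lies between 26389.5 and 28197 CPM in EV_4OHT libraries and at or below 23491 CPM in all EV libraries, and library 59 is the lowest of shAHCY_2.

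At the fate of pyruvate, the kinases that shut off pyruvate dehydrogenase moved apart. PDK3 had 5.07, 2.91, 5.16 and 4.74 CPM in EV_4OHT libraries, against 2.05, 1.78, 1.53 and 1.35 CPM in EV libraries. PDK1, a known HIF1 target, had 24.52, 24.8, 19.7 and 28.5 CPM in EV_4OHT libraries, against 43.1, 45.5, 41.9 and 43.2 CPM in EV libraries. Neither pair of groups overlapped. PDK3, with few counts in any library, rose by 1.41 ± 0.22 on the log2 scale (adjusted p = 8.59e-06), and PDK1 fell by 0.83 ± 0.11 (adjusted p = 9.51e-07). PDK4 had 1 count over the 4 EV_4OHT libraries and 9 counts over the 4 EV libraries.

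Lactate handling moved little. LDHB, the heart-type lactate dehydrogenase subunit, averaged 1070.1 ± 40.5 CPM in EV_4OHT cells and 916 ± 55.7 CPM in EV cells (log2 fold change 0.22 ± 0.06, adjusted p = 0.00345). LDHA, the muscle-type subunit and a HIF target, averaged 1896 ± 32.0 CPM in EV_4OHT cells and 1766 ± 45.2 CPM in EV cells and was not called, although its libraries did not overlap (log2 fold change 0.10, 95% interval -0.01 to 0.21, adjusted p = 0.121). With the GC trend of each library removed, LDHA passed the threshold at 0.15 (adjusted p = 0.00987). The lactate transporter SLC16A1 (MCT1) rose by 0.25 ± 0.10 on the log2 scale with overlapping groups (adjusted p = 0.0314), and its call ended without library 49, 50, 52, 53, 55 or 56 (adjusted p up to 0.167). The lactate exporter SLC16A3 (MCT4) was not called, at 135 ± 11.9 CPM in EV_4OHT cells and 141 ± 18.3 CPM in EV cells.

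Of the HIF subunits, HIF1A rose and EPAS1 (HIF-2 alpha) did not. HIF1A had 650.1, 636, 689 and 698 CPM in EV_4OHT libraries, against 517, 497, 541 and 442 CPM in EV libraries, with no overlap and a log2 fold change of 0.42 ± 0.09 (adjusted p = 0.000359). EPAS1 averaged 345 ± 18.1 CPM in EV_4OHT cells and 350.3 ± 24.9 CPM in EV cells, and the interval of its log2 fold change ran from -0.16 to 0.12. The oxygen sensor EGLN1 averaged 9.98 ± 2.33 CPM in EV_4OHT cells and 9.71 ± 3.77 CPM in EV cells with a wide interval of -0.43 to 0.49. EGLN3, itself induced by HIF in many cells, had 15 counts over the 4 EV_4OHT libraries and 3 counts over the 4 EV libraries.

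Of the 7 tested hypoxia response members other than the HIF and EGLN genes, 4 rose and 1 fell, while 26.7% of all tested genes rose and 26.8% fell. Glycolysis members that are also HIF targets, PDK1 and LDHA among them, are outside this count. NDRG1, a stress-induced gene, had 51.1, 39.2, 54.4 and 45.3 CPM in EV_4OHT libraries, against 25.0, 25.1, 19.1 and 28.7 CPM in EV libraries, with no overlap (log2 fold change 0.96 ± 0.12, adjusted p = 9.64e-07). BNIP3, a mitophagy receptor, averaged 152 ± 3.04 CPM in EV_4OHT cells and 89.3 ± 6.22 CPM in EV cells (log2 fold change 0.76 ± 0.07, adjusted p = 2.14e-09). Its reads may be shared with copies, since 26 named BNIP3 pseudogenes held counts equal to 28.8% of those of BNIP3, against 0.804% for LDHA and 0.0525% for the 64 named pseudogenes of GAPDH. P4HA2 and P4HA1, catalytic subunits of collagen prolyl 4-hydroxylase, rose by 0.67 ± 0.09 and 0.39 ± 0.10 on the log2 scale. BNIP3L, a mitophagy receptor related to BNIP3, and ADM, the vasodilator peptide adrenomedullin, were not called, with log2 fold changes of 0.11 and 0.07. With the GC trend of each library removed, BNIP3L passed the threshold at 0.26 (adjusted p = 0.00104).

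CA12, a membrane carbonic anhydrase that helps to clear acid, went the other way. It had 25.4, 26.7, 26.8 and 23.3 CPM in EV_4OHT libraries, against 58.9, 65.8, 56.5 and 59.02 CPM in EV libraries. The highest EV_4OHT library was below the lowest EV library by a wide margin, and the log2 fold change was -1.23 ± 0.11 (adjusted p = 1.6e-09). Its relative CA9, among the most used markers of hypoxia, had 9 counts over the 4 EV_4OHT libraries and 15 counts over the 4 EV libraries.

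**Figure D3:**
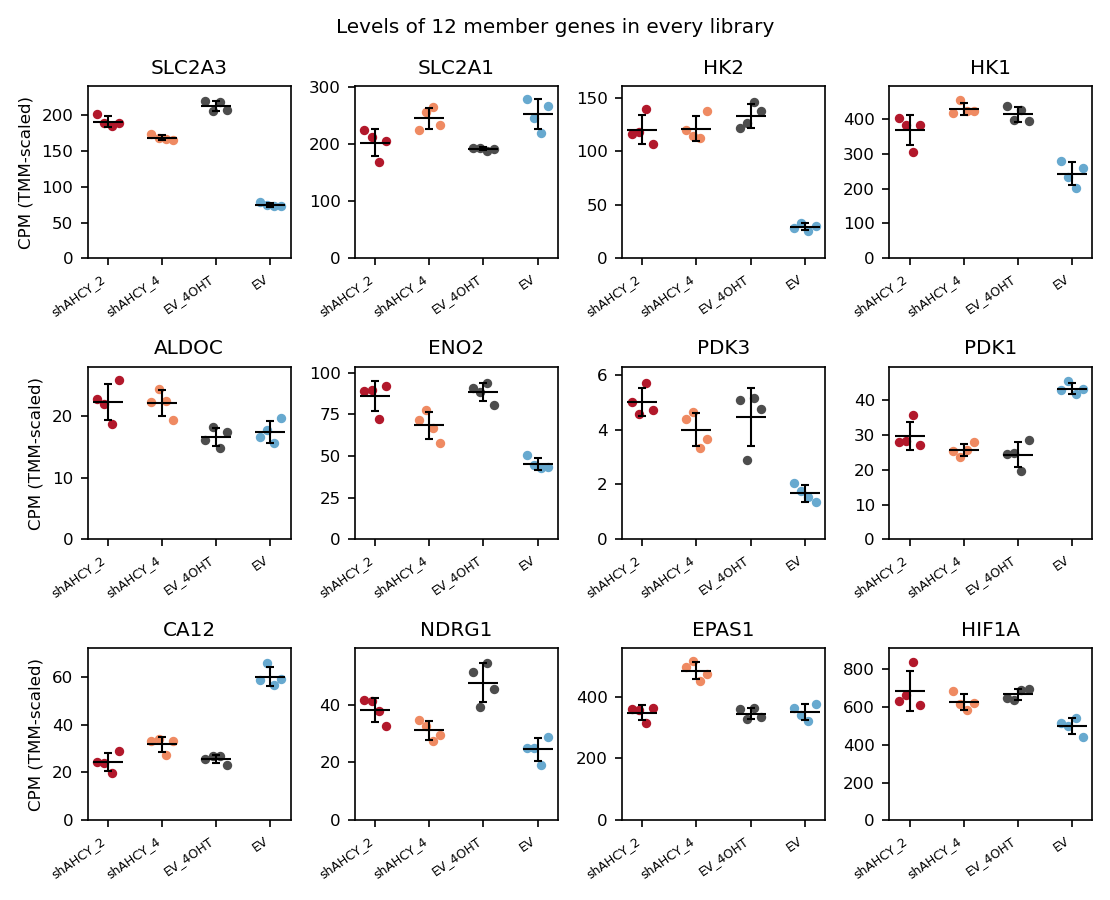
TMM-scaled CPM of 12 members in every library of shAHCY_2, shAHCY_4, EV_4OHT and EV, from left to right in each panel. Points are libraries and black bars the mean ± SD (n = 4). SLC2A3, HK2 and PDK3 lie higher and CA12, SLC2A1 and PDK1 lower in EV_4OHT than in EV cells, and EPAS1 is higher in shAHCY_4 (452 to 516 CPM) than in any other group.

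With the hairpin shAHCY_2, ALDOC was the only member called against EV_4OHT cells in the main edgeR fit. Of the 35 tested members 1 rose and 0 fell (2.86% called, against 6.98% of all tested genes, of which 3.91% rose and 3.07% fell). No member changed by 2-fold, while 1.12% of all genes rose and 0.311% fell by that much. The member that rose was ALDOC, with 22.8, 21.95, 18.8 and 25.9 CPM in shAHCY_2 libraries, against 16.2, 18.2, 14.8 and 17.4 CPM in EV_4OHT libraries. The groups did not overlap and the log2 fold change was 0.43 ± 0.12 (adjusted p = 0.0266), but the call ended when library 53 or 55 of EV_4OHT or library 57 or 60 of shAHCY_2 was left out, with adjusted p between 0.0541 and 0.0963. At an unadjusted p under 0.05, edgeR placed 4 members lower and 2 higher, DESeq2 called SLC2A3 lower at the adjusted threshold, and limma-voom called no member lower. Among the 34 members not called, the 95% intervals of the log2 fold change lay between -0.56 (NDRG1) and 0.77 (EGLN1).

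Members that differed most between EV_4OHT and EV cells were not called in shAHCY_2 against EV_4OHT cells in the main fit. HK2 averaged 120.3 ± 13.8 CPM in shAHCY_2 cells and 133 ± 10.9 CPM in EV_4OHT cells (log2 fold change -0.15, 95% interval -0.33 to 0.04). SLC2A3 averaged 192 ± 7.02 CPM in shAHCY_2 cells and 213 ± 6.86 CPM in EV_4OHT cells, with no overlap but an adjusted p of 0.144. CA12 averaged 24.3 ± 3.84 CPM in shAHCY_2 cells and 25.6 ± 1.62 CPM in EV_4OHT cells, and HIF1A averaged 687 ± 106 CPM in shAHCY_2 cells and 668 ± 30.0 CPM in EV_4OHT cells. Library 59 widened the spread in shAHCY_2: its summed level of the 17 enzymes was 22439 CPM, against 25839 to 26721 CPM in libraries 57, 58 and 60. Without library 59 the count of members called was the same, 1 higher and 0 lower. Removal of each library's trend with GC content gave 2 higher and 3 lower in edgeR. It added SLC16A3 higher (adjusted p = 0.0359) and SLC2A3 (0.0435), ALDOA (0.0255) and GAPDH (0.0404) lower. These have the directions called with shAHCY_4. In the main fit GAPDH averaged 7087 ± 582 CPM in shAHCY_2 and 8047 ± 202 CPM in EV_4OHT cells (adjusted p = 0.0947). ALDOA averaged 2846 ± 318 and 3251 ± 104 CPM (adjusted p = 0.127). Neither gene had overlapping groups.

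With the hairpin shAHCY_4, 10 members moved, each by less than 2-fold. Of the 35 tested members 4 rose and 6 fell (28.6% called, against 14.4% of all tested genes, of which 7.58% rose and 6.86% fell). Of all tested genes 1.4% rose and 1.03% fell by 2-fold or more. EPAS1, ALDOC, SLC2A1 and SLC16A3 rose, and NDRG1, ENO2, GAPDH, SLC2A3, ALDOA and LDHA fell. The median log2 fold change of the members was 0.00 and that of all tested genes 0.01. Per-library values of these 10 members are given below because they passed the test, a choice made after their values were seen. The plot of fitted changes sets them beside the other comparisons.

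**Figure D4:**
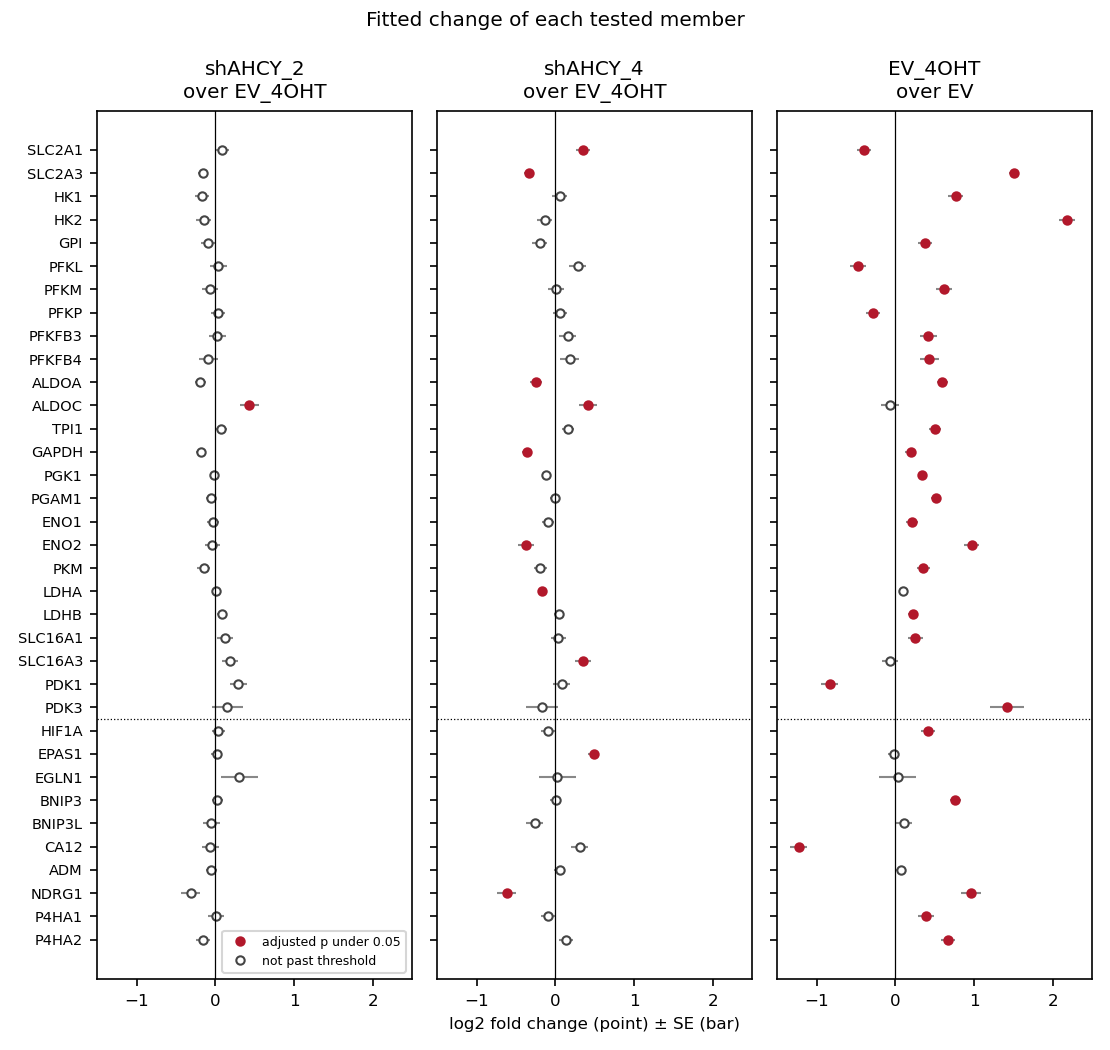
Fitted log2 fold change of each tested member (point) with its standard error (bar) for shAHCY_2 over EV_4OHT, shAHCY_4 over EV_4OHT and EV_4OHT over EV. Filled points passed an adjusted p under 0.05, and the dotted line parts glycolysis (above) from hypoxia response genes (below). 1, 10 and 28 points are filled from left to right, and the 2 hairpin panels share the EV_4OHT libraries.

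The glucose transporters again moved in opposite directions. SLC2A3 had 175, 169, 167 and 166 CPM in shAHCY_4 libraries, against 219.6, 207, 219 and 208 CPM in EV_4OHT libraries, and SLC2A1 had 225, 257, 266 and 234 CPM in shAHCY_4 libraries, against 194, 194, 188 and 192 CPM in EV_4OHT libraries. The groups did not overlap for either gene. The log2 fold change was -0.34 ± 0.06 for SLC2A3 (adjusted p = 0.000789) and 0.35 ± 0.09 for SLC2A1 (adjusted p = 0.00913). SLC2A3 thereby made up 36.5% ± 2.10 of the pair per kilobase of the longest transcript in shAHCY_4 cells, against 48.0% ± 1.01 in EV_4OHT cells. SLC2A3 still stood at 226% of its EV mean in shAHCY_4 cells, and SLC2A1 at 97.0% of its EV mean.

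Of the 11 tested enzymes from aldolase to lactate dehydrogenase, GAPDH, ENO2, ALDOA and LDHA fell, ALDOC rose, and TPI1, PGK1, PGAM1, ENO1, PKM and LDHB were not called, with log2 fold changes between -0.19 (PKM) and 0.16 (TPI1). GAPDH had 6196, 6737, 6219 and 5993 CPM in shAHCY_4 libraries, against 8207, 8199, 8002 and 7779.86 CPM in EV_4OHT libraries, with no overlap (log2 fold change -0.36 ± 0.07, adjusted p = 0.000619). This put GAPDH at 89.4% of its EV mean in shAHCY_4 cells, and at 114% in EV_4OHT cells. ENO2 had 71.4, 77.6, 66.6 and 58.03 CPM in shAHCY_4 libraries, against 90.9, 88.2, 93.9 and 80.8 CPM in EV_4OHT libraries, a log2 fold change of -0.37 ± 0.10 (adjusted p = 0.0114, and 0.0587 without library 64). ALDOA had 2562, 2867, 2841 and 2666 CPM in shAHCY_4 libraries, all below the 3150.45 to 3376 CPM of EV_4OHT libraries (log2 fold change -0.25 ± 0.07, adjusted p = 0.0253). LDHA had 1769, 1771, 1631 and 1585 CPM in shAHCY_4 libraries, all below the 1858 to 1930.46 CPM of EV_4OHT libraries (log2 fold change -0.17 ± 0.06, adjusted p = 0.0446). The ALDOA call ended without library 53, 54, 61 or 64 (adjusted p up to 0.0767) and with library totals alone (0.0944), and the LDHA call without library 53, 54, 55, 56, 63 or 64 (adjusted p up to 0.152), with library totals alone (0.163) and with no low-count filter (0.163).

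ALDOC and SLC16A3 rose in the same cells. ALDOC had 22.4, 24.47, 22.5 and 19.3 CPM in shAHCY_4 libraries, all above the EV_4OHT libraries, and a log2 fold change of 0.41 ± 0.12 (adjusted p = 0.0203). SLC16A3, the lactate exporter, had 146, 172, 167 and 200.4 CPM in shAHCY_4 libraries, against 133, 122, 151 and 133 CPM in EV_4OHT libraries. Its groups overlapped, and the log2 fold change was 0.35 ± 0.10 (adjusted p = 0.0205). Without library 53, 55, 62 or 63 the adjusted p of ALDOC lay between 0.0546 and 0.0838, and without library 53, 54, 56, 62 or 64 that of SLC16A3 lay between 0.0519 and 0.0824. The hexokinases did not pass: HK2 averaged 121 ± 11.3 CPM in shAHCY_4 cells and 133 ± 10.9 CPM in EV_4OHT cells, and HK1 averaged 429 ± 17.2 CPM in shAHCY_4 cells and 414 ± 21.2 CPM in EV_4OHT cells. PFKL averaged 118 ± 12.2 CPM in shAHCY_4 cells and 97.1 ± 4.00 CPM in EV_4OHT cells, with an adjusted p of 0.0757, or 0.0335 without library 61.

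In the hypoxia response, EPAS1 rose and NDRG1 fell. EPAS1 had 498, 516, 452 and 473 CPM in shAHCY_4 libraries, against 359, 327, 363 and 333 CPM in EV_4OHT libraries, and the lowest shAHCY_4 library was well above the highest EV_4OHT library. Its log2 fold change was 0.49 ± 0.07 (adjusted p = 5.15e-05). NDRG1 had 34.6, 32.5, 27.4 and 29.6 CPM in shAHCY_4 libraries, all below the 39.2 to 54.4 CPM of EV_4OHT libraries, with a log2 fold change of -0.62 ± 0.12 (adjusted p = 0.00156). CA12 had 33.0, 34.0, 27.2 and 33.0 CPM in shAHCY_4 libraries and missed the threshold (log2 fold change 0.31 ± 0.11, adjusted p = 0.0551), passing it without library 63 (0.033). BNIP3, which was higher in EV_4OHT than in EV cells, averaged 152 ± 4.03 CPM in shAHCY_4 cells and 152 ± 3.04 CPM in EV_4OHT cells. The 95% interval of its log2 fold change between these 2 groups was -0.13 to 0.13. EGLN3 had 1 count over the shAHCY_4 libraries, 6 over the shAHCY_2 libraries and 15 over the EV_4OHT libraries.

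Set beside the comparison of EV_4OHT with EV cells, with which they share the EV_4OHT libraries, the shAHCY_4 changes had these signs. SLC2A3, ALDOA, GAPDH, ENO2 and NDRG1 were called higher in EV_4OHT than in EV cells and lower in shAHCY_4 than in EV_4OHT cells. SLC2A1 was called lower and then higher. EPAS1, ALDOC, SLC16A3 and LDHA were called only with shAHCY_4 of these 2 comparisons. 18 members were called higher and 4 lower in EV_4OHT cells with no call under either hairpin, and 3 members (EGLN1, BNIP3L and ADM) were called in none of the comparisons. Because the same EV_4OHT libraries enter both comparisons, the signs are not independent of each other. The share of all tested genes with each of these patterns was not taken. These counts therefore do not show that the members differ from other genes.

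Between the hairpins, EPAS1 was the only member called by edgeR and by limma-voom. It had 359, 355, 315 and 365 CPM in shAHCY_2 libraries, against 498, 516, 452 and 473 CPM in shAHCY_4 libraries, with no overlap. The log2 fold change of shAHCY_2 over shAHCY_4 was -0.47 ± 0.07 (adjusted p = 0.000756), and it passed the threshold under every alternative tried. The call is 1 of 35 members (2.86%), against 1.24% of all tested genes (0.702% higher and 0.54% lower). For the 9 other members called with shAHCY_4, the edgeR test of all libraries did not call a difference between the hairpins, although for 6 of them the unadjusted interval left out 0. The 95% intervals of shAHCY_2 over shAHCY_4 ran from -0.45 to -0.10 for SLC2A1 (adjusted p = 0.118), from 0.06 to 0.30 for SLC2A3 (0.143), from 0.14 to 0.52 for ENO2 (0.087), from 0.06 to 0.55 for NDRG1 (0.209), from 0.05 to 0.30 for GAPDH (0.169) and from 0.07 to 0.28 for LDHA (0.108). No member was called higher by edgeR or limma-voom in shAHCY_2 over shAHCY_4, 5 were higher at an unadjusted p under 0.05, and DESeq2 called SLC2A3 (adjusted p = 0.0174), ENO2 (0.0298) and LDHA (0.0175) higher. With the GC trend of each library removed, edgeR called GAPDH (0.000852) and ENO2 (0.00754) higher and SLC2A1 (0.0236) lower, and both alternatives called CA12 and P4HA2 lower. ENO2 passed without library 59 (adjusted p = 0.0239) and CA12, lower in shAHCY_2, without library 60 (0.0403). AHCY itself did not differ beyond the threshold between the hairpins (adjusted p = 0.216).

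The balance within pairs of related genes was also tested directly, as the log2 ratio of each of 13 pairs in the 4 comparisons. None of the 52 exact two-sided permutation tests passed after adjustment. 4 libraries against 4 allow no p below 0.0286, 20 tests reached that value, and their adjusted p over all 52 was 0.0743. Even 20 tests at the lowest possible p were thus too few for any to pass, so the lack of calls does not show an unchanged balance. The 20 were 9 in EV_4OHT against EV, 1 in shAHCY_2 against EV_4OHT, 6 in shAHCY_4 against EV_4OHT and 4 between the hairpins. The SLC2A3 to SLC2A1 ratio was 1.89 higher on the log2 scale in EV_4OHT than in EV cells, the HK2 to HK1 ratio 1.38 higher, the PFKM to PFKL ratio 1.09 higher and the ENO2 to ENO1 ratio 0.74 higher. The ALDOC to ALDOA ratio was 0.60 higher in shAHCY_2 than in EV_4OHT cells and 0.64 higher in shAHCY_4 than in EV_4OHT cells. The LDHB to LDHA ratio was 0.21 higher in shAHCY_4 than in EV_4OHT cells.

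The rest of these pathways was followed in 4 lists of non-member genes, with the 4 smallest adjusted p named per list. In EV_4OHT against EV cells, 11 rose and 10 fell of 26 tested genes of other glycolysis steps and pyruvate entry (80.8% called, against 53.5% of all tested genes). BPGM, which makes 2,3-bisphosphoglycerate off the main path, averaged 303 ± 10.1 CPM in EV_4OHT cells and 59.1 ± 4.89 CPM in EV cells (log2 fold change 2.36 ± 0.07). PDK2, another pyruvate dehydrogenase kinase, fell by 1.40 ± 0.13 on the log2 scale and the glucose transporter SLC2A12 by 1.41 ± 0.17, while PDHX, a component of the pyruvate dehydrogenase complex, rose by 0.66 ± 0.08. Of 20 genes of the pentose phosphate, glycogen and hexosamine routes, 7 rose and 4 fell (11 of 20 called, a share near the 53.5% of all tested genes). GFPT2 and GFPT1, which open the hexosamine route, rose by 2.42 ± 0.10 and 0.60 ± 0.06, PGD of the pentose phosphate route by 0.46 ± 0.09 and PGM3 of the hexosamine route by 0.34 ± 0.07.

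Of 17 other regulators of the HIF pathway, 3 rose and 7 fell in EV_4OHT against EV cells (58.8% called, near the 53.5% of all tested genes). ARNT2, a partner of the HIF alpha subunits, fell by 2.55 ± 0.24 on the log2 scale and the SUMO protease SENP1 by 1.05 ± 0.17, while ELOB, of the VHL ubiquitin ligase, rose by 0.80 ± 0.09 and RACK1 by 0.41 ± 0.07. Of 34 other hypoxia targets, 18 rose and 6 fell (70.6% called, against 53.5%). ANGPTL4, a secreted inhibitor of lipoprotein lipase, averaged 378 ± 17.6 CPM in EV_4OHT cells and 25.5 ± 5.35 CPM in EV cells (log2 fold change 3.89 ± 0.13). The transcription factor BHLHE40 rose by 2.14 ± 0.10 and TMEM158, first described as a gene induced in RAS senescence, by 2.73 ± 0.15, whereas LOX, which crosslinks collagen, fell by 1.42 ± 0.07.

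Under the hairpins, the share of these 97 genes called was near that of all tested genes, at 7.22% with shAHCY_2 (6.98% of all) and 13.4% with shAHCY_4 (14.4% of all). PDHB, a subunit of pyruvate dehydrogenase, rose by 0.25 ± 0.07 in shAHCY_2 and by 0.39 ± 0.07 in shAHCY_4 against EV_4OHT cells, and PDP1, the phosphatase that switches pyruvate dehydrogenase on, by 0.32 ± 0.09 and 0.35 ± 0.09. The glucose transporter SLC2A6 fell with both hairpins, as did PGLS and PGD of the oxidative pentose phosphate route and the secreted hormone STC2. STC2 averaged 239 ± 22.3 CPM in shAHCY_2 and 263 ± 16.2 CPM in shAHCY_4 cells, against 375 ± 10.96 CPM in EV_4OHT cells. ANGPTL4 fell by 0.47 ± 0.11 in shAHCY_2, and VLDLR, AK4, PLOD2, TALDO1 and RACK1 fell and PYGL and RPIA rose in shAHCY_4. In all, 2 rose and 5 fell with shAHCY_2 and 4 rose and 9 fell with shAHCY_4 of 97 tested, and VLDLR alone differed between the hairpins, higher in shAHCY_2. PDHB and PDP1 were the 2 that rose with shAHCY_2, and leaving out library 54, 55, 57 or 58 left 0. The VLDLR call between the hairpins ended without library 58, 60, 61 or 62.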

How the data were processed

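Libraries were made from total RNA with the Smart-Seq2 protocol and Nextera XT indexing, per the labels' protocols, a protocol that does not mark strand. The authors deposited whole-number read counts per Ensembl gene. The submitters' processing notes name CASAVA 1.8.2, TopHat2 2.0.11, featureCounts 1.18.0 and the builds hg19 and GRCh37. Which annotation was counted, and how strand and multi-mapping reads were handled, is not given in the sources used here. Identifiers were matched to symbols through a name table, which listed 50127 of the 62069. Of these, 39007 had a symbol other than a clone name or an identifier, and 0.635% of counts lay outside those 39007. The count table held 0 columns of other samples.

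Groups came from the sample labels. Separate cultures are not named in the labels, and the p-values therefore reflect variation among libraries alone, which may be technical. Counts of all 16 libraries were fitted with edgeR 4.0.16 (R 4.3.3, quasi-likelihood F test, 1 mean per group, TMM factors, filterByExpr). 13526 genes were tested, with Benjamini-Hochberg adjustment over all of them and a threshold of 0.05. The common biological coefficient of variation was 11.9%. The fit was also run on simulated counts with known changes, as a check of the code. These were drawn from the spread estimated here, with few genes changed and no GC trend. That run therefore does not vouch for the results above. Each standard error was taken from the log2 fold change and its F statistic (size over root F), and levels are TMM-scaled CPM. The 95% intervals use a normal approximation with that standard error. They can be narrower than the F test would give. Ratios of related genes used log2(CPM + 1) and exact permutation tests with scipy. Lengths are those of GENCODE v29 transcripts, and promoters come from RefSeq (GRCh38.p14). No coordinates were converted between builds.

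Alternatives were RLE and upper-quartile factors, library totals alone, DESeq2 1.42.0, limma-voom 3.58.1, no filter, at least 10 counts in 8 libraries, a fit of only the 2 groups compared, removal of each library's GC trend (spline with 5 degrees of freedom, 13250 genes) and leaving out each library. For summed levels the alternatives were chosen after seeing the data. The member list and the other gene lists were chosen with earlier results of these data known. Per-library values are given for members changed at least 2-fold and past the threshold, for their main paralogues, and for members chosen after their values were seen. The part of shared reads in BNIP3, LDHA and GAPDH cannot be told apart from these counts.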

Additional observations from a re-analysis of the deposited data

Results flagged for a closer look

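9 of the 140 sets of 4 library values over the 35 tested members held a library far from the other 3 (Dixon's test at 95%), where chance alone gives about 1 in 20. In shAHCY_2, library 59 was the lowest for GPI (290.6 CPM, against 366 to 376 in the other 3), ALDOA (2373 CPM, against 2954 to 3046), ENO1 (2164 CPM, against 2668 to 2769.7) and P4HA2 (212.3 CPM, against 256 to 263). The same library was the highest for PDK1 (35.91 CPM, against 27.25 to 28.4), BNIP3L (287.4 CPM, against 198 to 212) and P4HA1 (445.2 CPM, against 315.5 to 331). In shAHCY_4, library 61 was the lowest for PFKL (99.74 CPM, against 123 to 126) and library 63 the lowest for CA12 (27.15 CPM, against 33.0 to 33.95). Library 59 deviated against gene GC content, and the part of GC content in these values was not tested gene by gene. EPAS1 differed between the hairpins in the edgeR test of that difference, with a log2 fold change of -0.47 in shAHCY_2 over shAHCY_4.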

How the results depend on the processing

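Under the alternatives, the counts of members called in EV_4OHT against EV cells stayed within 1.5 times of 23 higher and 5 lower, and 23 of the 28 calls passed under every one of them. No change of a member reversed its sign while called. Library totals alone moved the median log2 fold change of all genes in that comparison to -0.13 and ended the calls of GAPDH, ENO1, LDHB and SLC16A1. Upper-quartile factors ended those of GAPDH (adjusted p = 0.0628), ENO1 (0.0792) and SLC16A1 (0.0565), the fit of only the 2 groups that of SLC16A1 (0.0561), and removal of the GC trend added LDHA (0.00987) and BNIP3L (0.00104). For shAHCY_2 against EV_4OHT, 1 higher became 2 with the GC trend removed and 0 to 1 with a library left out, and 0 lower became 1 with DESeq2 and 3 with the GC trend removed. For shAHCY_4 against EV_4OHT, 4 higher became 7 when only the 2 groups were fitted, 7 with the GC trend removed and 2 to 5 with a library left out (2 without library 53 or 62). In the same comparison 6 lower became 9 when only the 2 groups were fitted and 9 with the GC trend removed, both adding GPI, PKM and BNIP3L, and 3 to 6 with a library left out (3 without library 64). 5 of the 10 shAHCY_4 calls passed under every alternative, and the 1 shAHCY_2 call did not. For shAHCY_2 against shAHCY_4, 0 higher became 3 with DESeq2, 1 with no filter, 2 with the GC trend removed and 0 to 1 with a library left out (1 without library 59), and 1 lower became 3 with DESeq2, 4 with the GC trend removed and 1 to 2 with a library left out (2 without library 60). The cause of these moves was not tested. Of the 97 other pathway genes, 9 lower in shAHCY_4 became 18 when only the 2 groups were fitted and 15 with the GC trend removed, and 5 lower in shAHCY_2 became 8 with DESeq2 and 11 with the GC trend removed. No paired analysis was made, because the labels name no pairing. The replicate numbers run on from group to group and do not show whether cultures were matched. Depth limits PDK4, EGLN3 and CA9, which had at most 8 counts in a library.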
